A study of Mus musculus with 8 samples.

Results

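Mouse haematopoietic stem and progenitor cells (HSPCs) that had lost both beta-catenin and Hoxa9 and carried an enzymatically dead PRMT1 were set against wild-type HSPCs carrying an empty vector, across all expressed autosomal genes. The comparison rests on 4 of the 8 libraries of the series, 2 in each group, chosen by their labels. Of 24421 listed genes, 23262 lay on an autosome and 12317 of those passed the filter on low counts and were tested. The 1159 rows left out were 1120 on chromosomes X and Y and 39 on other scaffolds.

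HSPCs are the blood-forming cells of the marrow. Beta-catenin, encoded by Ctnnb1, carries the canonical Wnt signal into the nucleus, where it acts with TCF and LEF factors. Hoxa9 is a homeobox transcription factor that keeps early progenitors in a self-renewing state and is used by many acute leukaemias. PRMT1 places most of the asymmetric dimethylarginine in the cell, on histone H4 and on many RNA-binding proteins, and a catalytically dead form can still bind partners without methylating them.

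Each group combined a genotype and an insert. WT_EV were wild-type HSPCs transduced with the empty vector. The dKO_MUT group were double-knockout (dKO) HSPCs transduced with the dead PRMT1, so they differed from WT_EV both by the loss of Ctnnb1 and Hoxa9 and by the insert. The dKO_EV group, dKO HSPCs with the empty vector, gave values beside the main comparison. The dKO_PRMT1 group, dKO HSPCs transduced with wild-type PRMT1, is not compared here, but its 2 libraries entered the fit and its estimate of spread. Every group was transduced, and all cells were harvested from mice after a primary transplant, so the wild-type reference is not an unmanipulated marrow. The design text and labels do not give the age or strain of the mice, the promoter of the vector, the Cre driver or the number of animals behind a library. The 2 libraries of a group are called replicates by the labels, with nothing on separate animals or cultures, and the p-values below therefore describe the scatter of these libraries, which may be technical.

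Several facts of the libraries bear on every value. Totals in the 4 libraries ran from 18507738 to 21405414 counts, and replicates of each group differed by more than counting noise. Xist, on chromosome X, had 3249 and 2252 counts in WT_EV and 0 in every dKO_EV and dKO_MUT library, while the Y-linked genes Ddx3y, Eif2s3y, Kdm5d and Uty had 0 counts in WT_EV and were read in every dKO_MUT library. The sex-linked difference follows the genotype exactly, so sex and genotype cannot be told apart in the autosomal results. The source and cell type labels call all libraries dKO, the wild-type ones included, and for dKO_MUT replicate 2 PRMT2 stands where PRMT1 would, in the genotype field. The progenitor label was checked on markers. Kit, the stem cell factor receptor, stood at 149 and 142 CPM in WT_EV and 169 and 159.7 CPM in dKO_MUT, and Cd34 at 166 and 168 CPM in WT_EV and 153 and 149 CPM in dKO_MUT. Myeloid granule genes were far more abundant, with Mpo at 6127 and 5976 CPM in WT_EV and 7997 and 8299.8 CPM in dKO_MUT. Markers of other lineages were present at lower sums. The 19 tested erythroid markers summed to 692 and 696 CPM in WT_EV, 573 and 573 CPM in dKO_EV and 475 and 495 CPM in dKO_MUT. The 9 tested T and NK cell markers summed to 94.4 and 99.2 CPM in WT_EV, 68.5 and 69.3 CPM in dKO_EV and 34.5 and 38.6 CPM in dKO_MUT, and the 9 tested B cell markers to 36.2 and 36.2 CPM in WT_EV, 22.2 and 23.1 CPM in dKO_EV and 22.9 and 21.8 CPM in dKO_MUT. The haemoglobin genes were listed at 0 in every library, as were Rpl26 and Ndufs5, which every cell uses, so these zeros are not read as absence. In bulk RNA fewer cells of a type and less RNA per cell cannot be told apart.

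Prmt1, Hoxa9 and Ctnnb1 come first, since they check the labels. CPM are counts scaled to a common library size with TMM factors, and differences are log2 fold changes of dKO_MUT over WT_EV ± standard error, with n = 2 libraries a group. Prmt1 (chr7:44976755-44986420 on GRCm38) had 195 and 199 CPM in WT_EV, 195 and 200.3 CPM in dKO_EV and 1803 and 1817 CPM in dKO_MUT. Both dKO_MUT libraries were high, both other groups lay at the same low level, and the difference was 3.20 ± 0.04 (adjusted p = 6.6e-38), 9.21-fold. Hoxa9 (chr6:52223097-52227370) had 18.8 and 17.8 CPM in WT_EV, 5.97 and 3.74 CPM in dKO_EV and 5.01 and 2.02 CPM in dKO_MUT. It fell by 2.36 on the log2 scale, SE 0.32 (adjusted p = 4.6e-06), with 104 and 36 counts still assigned to it in dKO_MUT. Ctnnb1 (chr9:120933400-120960507) stood at 459 and 470.4 CPM in WT_EV, 402 and 391 CPM in dKO_EV and 372 and 381 CPM in dKO_MUT, at -0.30 ± 0.04 (adjusted p = 1.5e-07). The table holds 1 count per gene, so a deletion of part of Ctnnb1 is not checked by it. Prmt2, a related methyltransferase, had 7.14 and 7.12 CPM in WT_EV and 3.57 and 4.09 CPM in dKO_MUT, at -0.90 ± 0.27 (adjusted p = 0.015). That call was lost on leaving out WT_EV replicate 1 (adjusted p = 0.1), WT_EV replicate 2 (adjusted p = 0.1) or dKO_MUT replicate 1 (adjusted p = 0.12).

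A large share of the transcriptome differed. Between dKO_MUT and WT_EV 2386 of 12317 genes were called at an adjusted p of 0.05 (19.4%), 1156 higher (9.39%) and 1230 lower (9.99%). These shares are the reference for the counts of each list below in this comparison. Among the called genes 446 differed 2-fold or more, and these were mostly decreases, with 293 lower and 153 higher. The libraries of the groups did not overlap for 2385 of the called genes, the exception being Scand1. With 2 libraries a group, a called gene is nearly bound to be separated, so this count adds no support to the calls. In the plot of fold change against mean level, most called changes are small, with a median size of 0.43 on the log2 scale. The plot does not show which direction reaches further, since 10 genes lie outside its range. The companion comparisons share libraries with this one. In dKO_EV against WT_EV, which differ by genotype and by sex, 1916 genes were called (15.6%), 1021 higher (8.29%) and 895 lower (7.27%). That count depended on the wild-type libraries, being 1164 without WT_EV replicate 1 and 1110 without WT_EV replicate 2. In dKO_MUT against dKO_EV, which differ by the insert in their labels, 1415 were called (11.5%), 546 higher (4.43%) and 869 lower (7.06%). The shares of each companion comparison are the reference for list counts given in it.

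**Figure D1:**
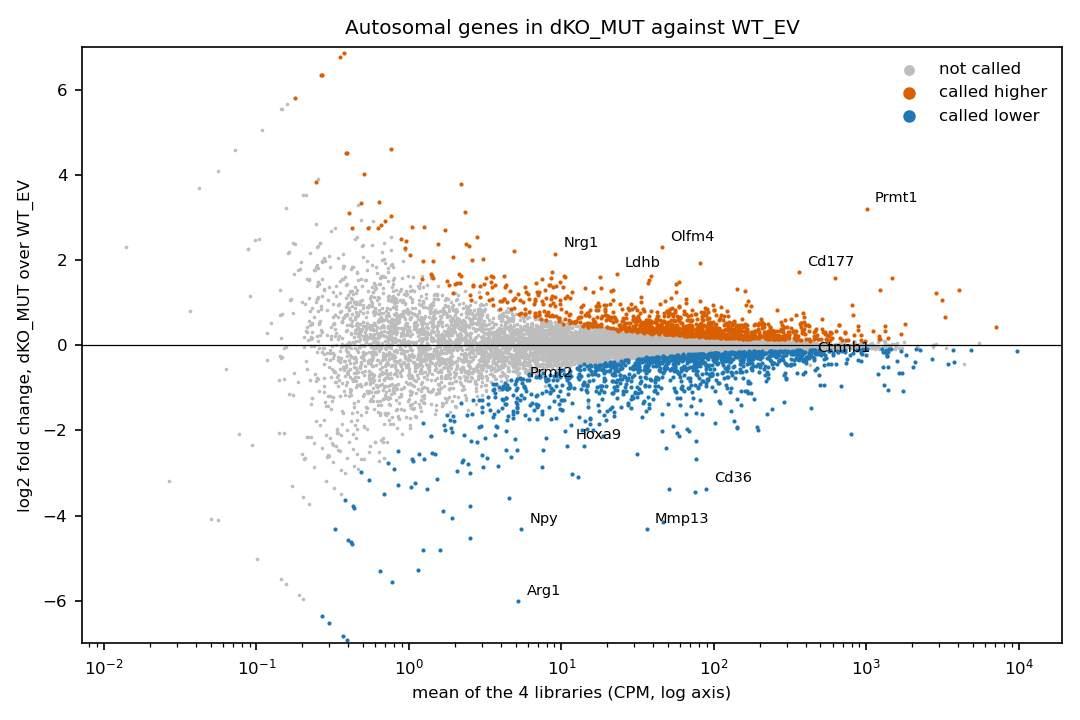
Log2 fold change of dKO_MUT over WT_EV against the mean CPM of the 4 libraries (log axis) for each tested autosomal gene, with called genes in colour; 10 genes of very low level lie outside the vertical range. Prmt1 lies at 3.20 and the decreases of Arg1, Npy and Mmp13 lie below -4.

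Of the 12 largest increases, 4 were in the secondary and tertiary granule list of neutrophils, Olfm4, Cd177, Camp and Ceacam10. Olfm4, a marker of a subset of neutrophil precursors, stood at 15.7 and 15.0 CPM in WT_EV, 49.0 and 55.3 CPM in dKO_EV and 74.2 and 77.3 CPM in dKO_MUT. It was 4.94-fold higher, at 2.30 ± 0.10 (adjusted p = 5.0e-20). Chil1, a chitinase-like protein of specific granules, had 32.9 and 35.4 CPM in WT_EV, 81.7 and 77.3 CPM in dKO_EV and 131 and 128 CPM in dKO_MUT, a rise of 1.92 ± 0.08 (adjusted p = 2.1e-21). In both genes dKO_EV lay between WT_EV, the lowest, and dKO_MUT, without overlap. The choice of the 12 largest changes required dKO_MUT and WT_EV not to overlap, so only the place of dKO_EV was free to vary. Cd177, a neutrophil surface glycoprotein, had 165 and 173 CPM in WT_EV, 427 and 439.6 CPM in dKO_EV and 539 and 567 CPM in dKO_MUT, at 1.71 ± 0.04. Camp, the cathelicidin antimicrobial peptide, had 301 and 318 CPM in WT_EV, 630.3 and 667 CPM in dKO_EV and 922 and 942 CPM in dKO_MUT, at 1.59 ± 0.04. Ceacam10 and Clec4b2, a carcinoembryonic antigen relative and a C-type lectin, rose by 1.62 ± 0.20 and 1.71 ± 0.22, and Crispld2 by 1.63 ± 0.10. Nrg1, the ligand neuregulin of ERBB receptors, had 3.75 and 2.89 CPM in WT_EV, 8.92 and 10.2 CPM in dKO_EV and 16.9 and 12.7 CPM in dKO_MUT, at 2.15 ± 0.22. Ldhb, the lactate dehydrogenase subunit that favours the return of lactate to pyruvate, had 11.2 and 10.7 CPM in WT_EV, 28.3 and 21.7 CPM in dKO_EV and 35.2 and 35.1 CPM in dKO_MUT, at 1.68 ± 0.14. The protease Adam19 rose by 1.60 ± 0.15, and dKO_MUT differed from dKO_EV by 0.13 ± 0.13 (adjusted p = 0.63). Tie1, an orphan receptor tyrosine kinase of endothelium and stem cells, had 4.76 and 5.73 CPM in WT_EV, 22.3 and 29.7 CPM in dKO_EV and 16.1 and 15.6 CPM in dKO_MUT. It rose by 1.60 ± 0.19 against WT_EV, yet dKO_MUT lay under dKO_EV, at -0.72 ± 0.16 (adjusted p = 0.002), a call lost without dKO_EV replicate 2.

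Of the 12 largest decreases, 3 were chemokines, Ccl2, Ccl4 and Ccl7, and the others came from several lists or none. Arg1 (chr10:24915207-24927470), the arginase of alternatively activated macrophages, had 176 and 210 counts in WT_EV, 27 and 30 in dKO_EV, and 6 and 0 in dKO_MUT. Its log2 fold change was -6.00 ± 0.56 (adjusted p = 6.9e-11), a size that rests on those few counts. Mmp13, a collagenase, had 69.8 and 68.5 CPM in WT_EV, 19.9 and 17.5 CPM in dKO_EV and 4.29 and 2.52 CPM in dKO_MUT, at -4.32 ± 0.18 (adjusted p = 8.1e-21). Both genes were lowest in both dKO_MUT libraries and intermediate in dKO_EV. Cd36, the scavenger receptor for oxidised lipids, had 159 and 164 CPM in WT_EV, 77.1 and 82.0 CPM in dKO_EV and 14.3 and 17.2 CPM in dKO_MUT. It was 10.3-fold lower, at -3.37 ± 0.09 (adjusted p = 9.0e-26). Irg1, which makes itaconate in activated macrophages, had 96.7 and 89.4 CPM in WT_EV, 39.6 and 43.8 CPM in dKO_EV and 8.77 and 9.25 CPM in dKO_MUT, at -3.37 ± 0.13. Flrt2, a leucine-rich transmembrane protein, had 23.6 and 22.4 CPM in WT_EV, 11.7 and 16.8 CPM in dKO_EV and 1.69 and 3.81 CPM in dKO_MUT, at -3.09 ± 0.25, and Pdpn, the mucin podoplanin, had 14.1 and 12.1 CPM in WT_EV, 7.15 and 8.04 CPM in dKO_EV and 1.30 and 2.36 CPM in dKO_MUT, at -2.85 ± 0.28. In these 4 genes too dKO_EV lay between WT_EV and dKO_MUT without overlap, where the separation of WT_EV from dKO_MUT was set by the selection.

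For another set the decrease was already seen with the empty vector, and Gzmb and Npy were not called between the dKO groups. Gzmb, the protease granzyme B, had 131 and 131 CPM in WT_EV, 23.2 and 25.5 CPM in dKO_EV and 20.6 and 20.8 CPM in dKO_MUT. It was 6.33-fold lower than in WT_EV, at -2.66 ± 0.10 (adjusted p = 1.3e-22), while dKO_MUT differed from dKO_EV by -0.24 ± 0.10 (adjusted p = 0.14). Npy, the neuropeptide Y gene, had 11.4 and 9.46 CPM in WT_EV, 1.31 and 0.369 CPM in dKO_EV and 0.723 and 0.280 CPM in dKO_MUT, at -4.33 ± 0.52 against WT_EV and -0.62 ± 0.63 against dKO_EV (adjusted p = 0.61). The libraries of both dKO groups overlapped for Npy and not for Gzmb. Itgb2l, a beta integrin related to Itgb2, had 55.0 and 52.9 CPM in WT_EV, 7.15 and 5.45 CPM in dKO_EV and 10.3 and 7.96 CPM in dKO_MUT. Here dKO_MUT was -2.56 ± 0.15 against WT_EV and 0.56 ± 0.18 against dKO_EV (adjusted p = 0.032). The latter call was lost by limma voom (adjusted p = 0.111) and in an edgeR fit of these 2 dKO groups alone (adjusted p = 0.24). It was also lost without WT_EV replicate 1, WT_EV replicate 2, dKO_EV replicate 2 or dKO_MUT replicate 1.

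**Figure D2:**
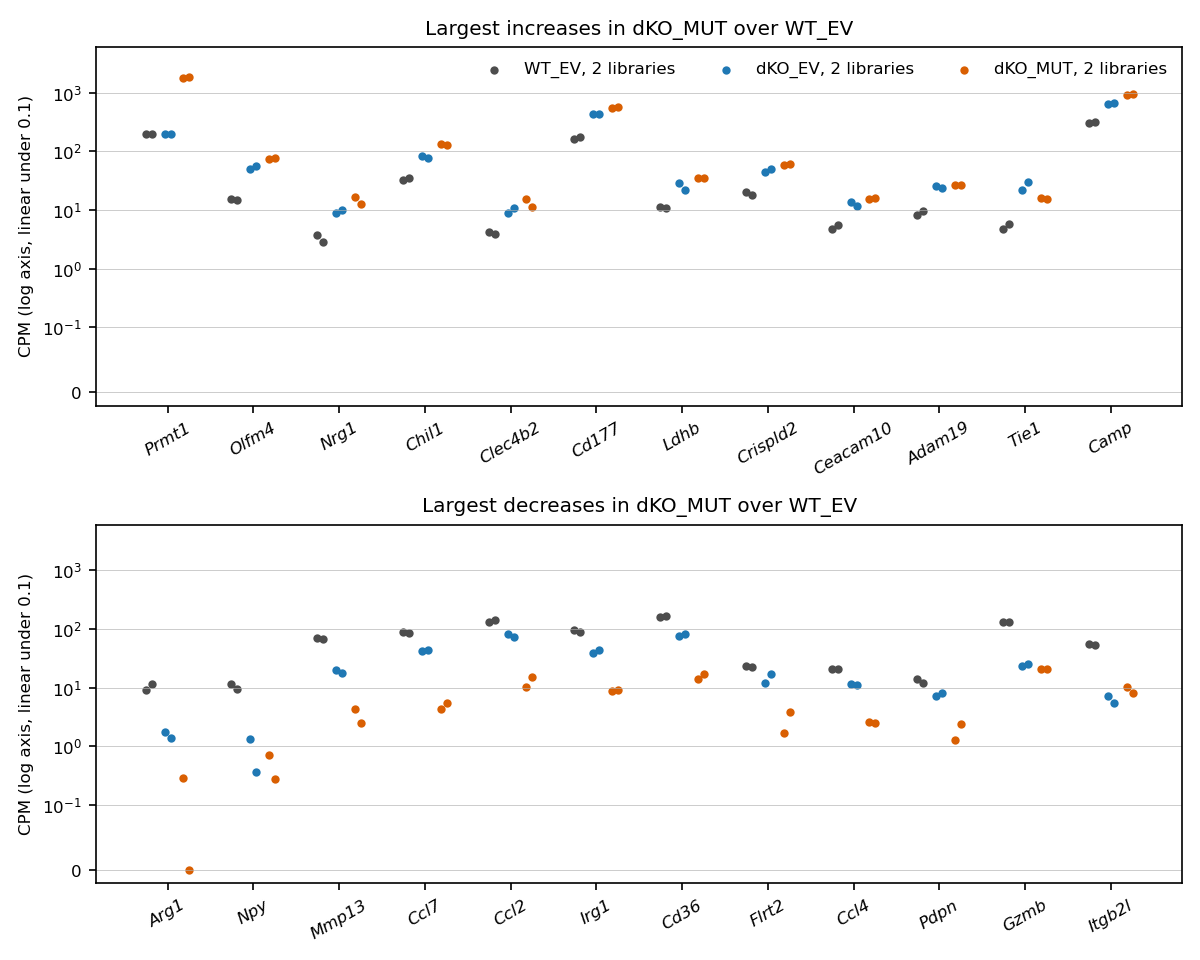
CPM in each library of WT_EV, dKO_EV and dKO_MUT (log axis, linear under 0.1) for the 12 largest increases and the 12 largest decreases in dKO_MUT over WT_EV; each point is 1 library. Prmt1 is high in dKO_MUT alone, Gzmb and Npy are about as low in dKO_EV as in dKO_MUT, and Ccl2, Ccl7 and Cd36 fall stepwise.

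Genes of the type I interferon response were lower almost throughout. Interferon signals through STAT factors and IRF9, which bind interferon response elements before genes for antiviral effectors. Of 50 tested members 49 fell and 0 rose, with a median log2 fold change of -0.76 against 2e-04 over all genes tested, and the summed level was 7987 and 7958 CPM in WT_EV, 7060.5 and 7248 CPM in dKO_EV and 4687 and 4712 CPM in dKO_MUT. The count of 49 was the same when any 1 library was left out. Irf7, the factor that amplifies interferon production, had 425 and 397 CPM in WT_EV, 347 and 359.6 CPM in dKO_EV and 155 and 168 CPM in dKO_MUT, at -1.34 ± 0.05 (adjusted p = 4.2e-22). Ifit2, which binds foreign RNA, had 196 and 206 CPM in WT_EV, 154 and 154 CPM in dKO_EV and 83.8 and 82.9 CPM in dKO_MUT, at -1.27 ± 0.06. Rsad2, the antiviral enzyme viperin, had 118 and 133 CPM in WT_EV, 85.6 and 88.1 CPM in dKO_EV and 37.5 and 44.7 CPM in dKO_MUT, at -1.61 ± 0.09. In all 3 genes the dKO_MUT libraries lay well under both other groups. Bst2, tetherin, was at -1.07 ± 0.06 and the secreted glycoprotein Lgals3bp at -0.93 ± 0.04. The member not called was Mx2, at 0.03 ± 0.23 (adjusted p = 0.97).

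**Figure D3:**
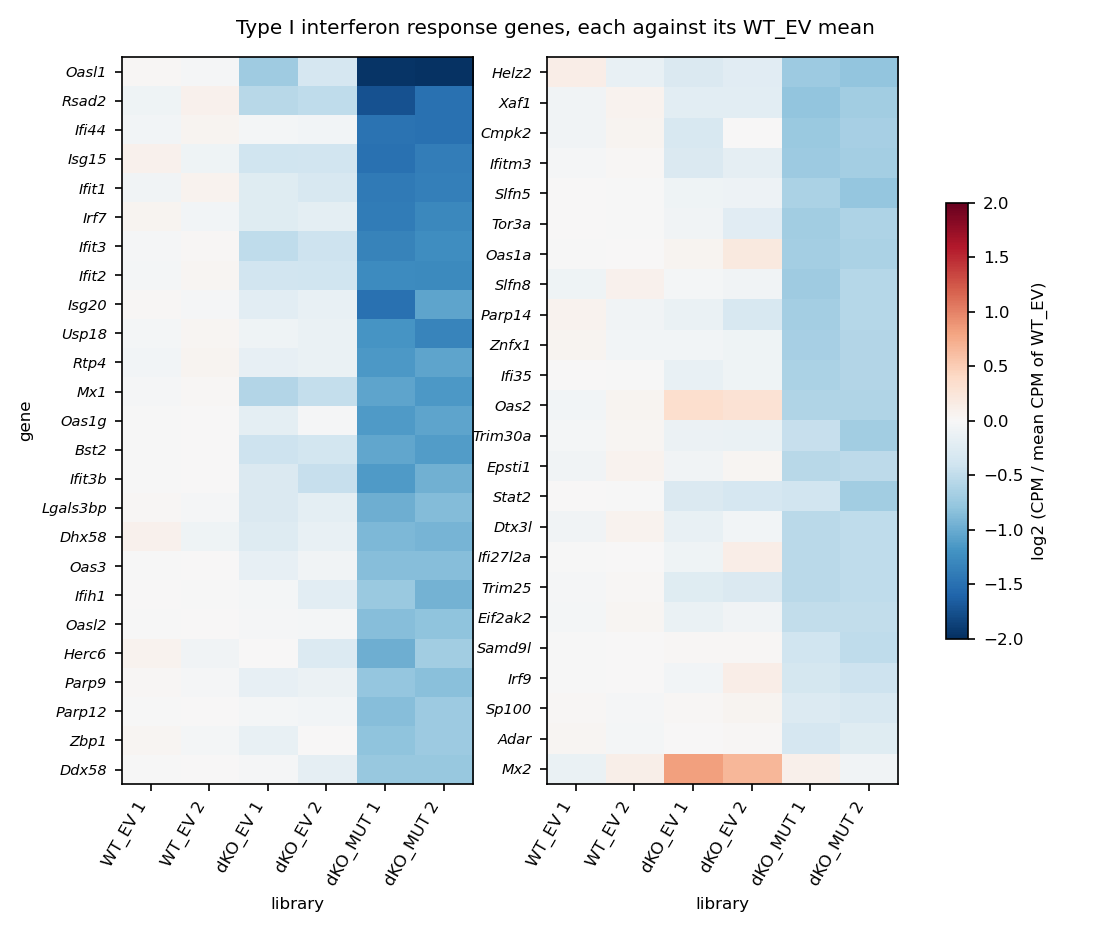
Log2 ratio of each of 49 of the 50 type I interferon response genes to its own mean in WT_EV, by library, ordered by the fold change of dKO_MUT over WT_EV. In all genes shown but Mx2 the dKO_MUT columns are blue and the dKO_EV columns lie nearer the wild type. Mx2 stands at 0.823 and 0.664 in dKO_EV and at 0.102 and -0.063 in dKO_MUT.

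In dKO_EV against WT_EV, where sex goes with genotype, the median of the interferon genes was -0.12. There 15 of 50 were lower, against 7.27% of all genes tested, and 2 were higher, against 8.29%. The count of increases fell on leaving out either WT_EV library or dKO_EV replicate 1. In dKO_MUT over dKO_EV the median was -0.67 and 50 of 50 fell, so the decrease was called against both references. The difference between these comparisons was not tested. The tested receptor subunit Ifnar1 was not called against WT_EV, at 0.11 ± 0.06 (adjusted p = 0.19). Of the factors that relay the signal, Stat2 was at -0.53 ± 0.07 and Irf9 at -0.38 ± 0.08, both called lower and named after their values were seen.

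Promoters of the 4 called interferon genes with the smallest p among those holding the motif are shown, because the letters that STAT and IRF factors bind can be read in them. Sequences are from RefSeq (GRCm38.p6), written 5′ to 3′ on the gene's strand, and capitals mark matches on either strand to an interferon-type motif, GAAA followed by any 2 bases and then GAAA, within 250 bases before the start site. The windows are chr8:71537567-71537622, minus strand for Bst2, chr12:26456543-26456592, minus strand for Rsad2, chr4:156200855-156200916, minus strand for Isg15 and chr5:120777705-120777754, minus strand for Oas3.
Bst2: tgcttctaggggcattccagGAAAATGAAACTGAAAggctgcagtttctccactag
Rsad2: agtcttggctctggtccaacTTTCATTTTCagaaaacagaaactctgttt
Isg15: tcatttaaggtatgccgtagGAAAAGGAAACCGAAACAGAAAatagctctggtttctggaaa
Oas3: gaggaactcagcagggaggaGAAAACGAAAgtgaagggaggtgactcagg
The Isg15 window holds 3 overlapping matches and that of Bst2 holds 2. Of the 38 interferon genes with a promoter in the table, 13 hold the motif (34.2%), against 315 of 9379 tested genes (3.36%). The share was 7.97% in the genes called lower in dKO_MUT, 2.47% in those called higher and 2.88% in those not called. A match describes the letters only and is no evidence of binding here.

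MHC class I genes, which present intracellular peptides and are themselves inducible by interferon, were lower as well. Of 15 tested members of the class I and immunoproteasome list, 14 fell and 0 rose, with a median of -0.38. B2m, the common light chain, had 1978 and 2028 CPM in WT_EV, 1732 and 1745 CPM in dKO_EV and 1308 and 1260.1 CPM in dKO_MUT, at -0.64 ± 0.03 (adjusted p = 2.9e-18). H2-K1, a heavy chain, had 1529 and 1500.2 CPM in WT_EV, 1446 and 1464 CPM in dKO_EV and 1063 and 1067 CPM in dKO_MUT, at -0.51 ± 0.03. The peptide transporter Tap1 was at -0.63 ± 0.05, H2-Q4 at -0.68 ± 0.07 and the loading factor Tapbp at -0.38 ± 0.04. The median was -0.06 in dKO_EV over WT_EV and -0.29 in dKO_MUT over dKO_EV, with 14 of 15 lower in the latter. H2-Q6, H2-Q7 and H2-T22 are near-identical to other class I genes and were listed at 0, and the split of reads within this family is uncertain.

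MHC class II genes, which present extracellular peptides to helper T cells, went the other way. Of 10 tested members 7 rose and 1 fell, with a median of 0.48. Cd74, the invariant chain, had 758 and 745 CPM in WT_EV, 1078 and 1202 CPM in dKO_EV and 1018 and 1027 CPM in dKO_MUT, at 0.44 ± 0.04 (adjusted p = 1.3e-11). H2-Aa had 158 and 163 CPM in WT_EV, 262 and 271 CPM in dKO_EV and 246 and 249.5 CPM in dKO_MUT, at 0.63 ± 0.05. Both dKO groups were above WT_EV for both genes, and the dKO_MUT libraries lay under those of dKO_EV, a difference called for Cd74 (adjusted p = 0.0039) and not for H2-Aa (adjusted p = 0.15). The Cd74 call was lost without dKO_EV replicate 2, at -0.08 (adjusted p = 0.205), or without dKO_MUT replicate 1 (adjusted p = 0.054). Ciita, the master activator of the class, rose by 0.61 ± 0.11 and differed from dKO_EV by -0.17 ± 0.10 (adjusted p = 0.31). The member that fell was H2-Ob, at -1.38 ± 0.41 (adjusted p = 0.015), and the count of decreases was 0 without WT_EV replicate 2, dKO_MUT replicate 1 or dKO_MUT replicate 2.

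Chemokines, the secreted attractants of leukocytes, showed the lowest median of any list. Of 16 tested, 14 fell and 0 rose, at a median of -1.55. Ccl2 and Ccl7, neighbouring attractants of monocytes, were the most affected of the abundant ones. Ccl2 had 133 and 142 CPM in WT_EV, 81.5 and 73.5 CPM in dKO_EV and 10.4 and 15.1 CPM in dKO_MUT, 10.8-fold lower at -3.44 ± 0.11 (adjusted p = 1.8e-24). Ccl7 had 89.4 and 86.4 CPM in WT_EV, 42.7 and 43.2 CPM in dKO_EV and 4.34 and 5.55 CPM in dKO_MUT, 17.9-fold lower at -4.16 ± 0.13 (adjusted p = 9.7e-25). Ccl4 had 21.1 and 20.6 CPM in WT_EV, 11.6 and 11.2 CPM in dKO_EV and 2.60 and 2.52 CPM in dKO_MUT, at -3.02 ± 0.22. For all 3 dKO_EV was intermediate without overlap, where the separation of WT_EV from dKO_MUT was set by their choice among the largest decreases. Ccl9, the most abundant of the list, had 639.7 and 629.7 CPM in WT_EV, 322 and 356 CPM in dKO_EV and 231 and 229 CPM in dKO_MUT, at -1.47 ± 0.04. Pf4, platelet factor 4, was at -0.98 ± 0.07 and Ccl5 at -1.70 ± 0.33. The medians were -0.24 for dKO_EV over WT_EV and -1.33 for dKO_MUT over dKO_EV, where 13 of 16 fell.

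Cytokines and feedback genes of NF-kB, the factor of acute inflammation, were lower in part. Of 26 tested members 15 fell and 1 rose, but the 15 became 9 without dKO_MUT replicate 2. Besides Irg1, Clec4e, a receptor for damaged cells and mycobacterial lipid, was at -0.95 ± 0.07, Saa3, an acute phase protein, at -1.35 ± 0.21 and Sod2, the mitochondrial superoxide dismutase, at -0.39 ± 0.06. Tnfaip2 was the member that rose, at 0.40 ± 0.04. Nfkb1, a subunit of the factor itself, was not called, at 0.09 ± 0.05 (adjusted p = 0.2).

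Markers of monocytes and macrophages fell, with exceptions. Of 32 tested 19 fell and 4 rose, at a median of -0.57, and the list summed to 5444 and 5295 CPM in WT_EV, 5078 and 4866 CPM in dKO_EV and 4889 and 4720.3 CPM in dKO_MUT. Genes for subunits of complement C1q, made by macrophages, were among the largest decreases. C1qb had 133 and 118 CPM in WT_EV, 61.0 and 57.0 CPM in dKO_EV and 25.0 and 28.3 CPM in dKO_MUT, at -2.24 ± 0.09 (adjusted p = 4.0e-21), and C1qc had 85.8 and 77.6 CPM in WT_EV, 40.9 and 29.9 CPM in dKO_EV and 15.4 and 15.1 CPM in dKO_MUT, at -2.42 ± 0.12. Fcgr1, the high-affinity receptor for IgG, had 211 and 209.6 CPM in WT_EV, 109 and 119.9 CPM in dKO_EV and 62.1 and 59.4 CPM in dKO_MUT, at -1.79 ± 0.06. For each of them dKO_EV lay between the other groups. Mrc1, the mannose receptor, had 142 and 135 CPM in WT_EV, 134 and 152 CPM in dKO_EV and 67.5 and 64.5 CPM in dKO_MUT. It fell by 1.07 ± 0.07 against WT_EV, and dKO_EV over WT_EV was 0.05 ± 0.06 (adjusted p = 0.69). The transcription factor Maf was at -2.07 ± 0.10 and the receptor Csf1r, of the macrophage growth factor, at -0.58 ± 0.04. The 4 that rose were F13a1 at 0.61 ± 0.04, Itgam at 0.34 ± 0.04, Klf4 at 0.58 ± 0.08 and Cd209a at 2.53 ± 0.42, of which F13a1 and Cd209a are named after their values were seen.

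Genes by which macrophages take up and store lipid shared this decrease. Of 20 tested 15 fell and 2 rose, at a median of -0.67. Lpl, which releases fatty acids from lipoproteins, had 1254 and 1313 CPM in WT_EV, 659 and 746 CPM in dKO_EV and 296 and 306 CPM in dKO_MUT, 4.26-fold lower at -2.09 ± 0.04 (adjusted p = 1.1e-29). Gpnmb, a glycoprotein of lipid-laden macrophages, had 1854 and 1889 CPM in WT_EV, 1483 and 1576 CPM in dKO_EV and 907 and 896 CPM in dKO_MUT, at -1.05 ± 0.03. Spp1, osteopontin, had 191 and 193 CPM in WT_EV, 78.7 and 101.1 CPM in dKO_EV and 64.7 and 67.1 CPM in dKO_MUT, at -1.54 ± 0.08. The step from WT_EV to dKO_EV was larger than the step to dKO_MUT for Spp1, while for Lpl and Gpnmb the second step was the larger. Lgals3, galectin 3, fell by 0.67 ± 0.04 and was not called in dKO_EV over WT_EV, at 0.05 ± 0.04 (adjusted p = 0.38). The members that rose were Apoe, the lipid carrier, at 1.26 ± 0.11, and Scarb1 at 0.15 ± 0.05. The count of 2 was 1 without WT_EV replicate 2 or dKO_MUT replicate 1. Both are named after their values were seen.

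Lysosomal genes were lower in many members, proteases among them. Of 34 tested 17 fell and 2 rose, with a median of -0.19. Ctsl, cathepsin L, had 312 and 312 CPM in WT_EV, 136 and 144 CPM in dKO_EV and 81.0 and 74.9 CPM in dKO_MUT, at -1.999 ± 0.06 (adjusted p = 8.0e-25). Lgmn, an asparagine protease, had 333 and 342 CPM in WT_EV, 243 and 248 CPM in dKO_EV and 110.5 and 112 CPM in dKO_MUT, at -1.60 ± 0.05. Ctsb, the most abundant cathepsin named here, had 2338 and 2339 CPM in WT_EV, 1869 and 2008 CPM in dKO_EV and 1097 and 1137 CPM in dKO_MUT, at -1.07 ± 0.03. Ctsd, cathepsin D, was at -0.52 ± 0.03 and Psap, the saposin precursor, at -0.40 ± 0.03. The dKO_MUT libraries were lowest for all 5.

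Granule genes of neutrophils rose. Neutrophils load granules in an order during maturation, primary granules with myeloperoxidase and serine proteases at the promyelocyte stage, then secondary and tertiary granules under the factor C/EBP epsilon. Of 21 secondary and tertiary granule genes 20 rose and 1, Itgb2l, fell, with a median of 1.06. Their sum was 10179 and 10382 CPM in WT_EV, 17620 and 18640 CPM in dKO_EV and 22982 and 23098 CPM in dKO_MUT. Ltf, lactoferrin, had 728 and 742 CPM in WT_EV, 1415 and 1467 CPM in dKO_EV and 2184 and 2208 CPM in dKO_MUT, at 1.58 ± 0.03 (adjusted p = 9.5e-30). Ngp, the neutrophilic granule protein, had 1712 and 1707 CPM in WT_EV, 2778 and 2981 CPM in dKO_EV and 3936 and 4070.2 CPM in dKO_MUT, at 1.23 ± 0.03. Chil3, a chitinase-like lectin, had 696 and 723 CPM in WT_EV, 1648 and 1677 CPM in dKO_EV and 1748 and 1764 CPM in dKO_MUT, at 1.31 ± 0.03. Ltf and Ngp stepped up from WT_EV to dKO_EV and again to dKO_MUT, while Chil3 did not differ between the dKO groups past the threshold, at 0.08 ± 0.03 (adjusted p = 0.11). Cebpe, which encodes C/EBP epsilon and is itself counted among the 20, rose by 0.77 ± 0.06. The list's median was 0.75 in dKO_EV over WT_EV, where 19 of 21 rose, and 0.32 in dKO_MUT over dKO_EV, where 13 rose and 0 fell.

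Promoters of granule genes, chosen in the same way, are printed for the letters that C/EBP factors bind. Capitals mark TTGCNNAA, a C/EBP-type motif, on either strand. The windows are chr9:111019197-111019244, plus strand for Ltf, chr9:110419650-110419807, plus strand for Ngp, chr3:90695930-90695971, minus strand for S100a9 and chr2:32387928-32387975, minus strand for Lcn2.
Ltf: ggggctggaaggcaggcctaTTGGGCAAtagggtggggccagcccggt
Ngp: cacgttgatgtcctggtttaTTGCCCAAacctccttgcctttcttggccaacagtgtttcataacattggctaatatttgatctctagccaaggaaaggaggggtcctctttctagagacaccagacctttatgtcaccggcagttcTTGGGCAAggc
S100a9: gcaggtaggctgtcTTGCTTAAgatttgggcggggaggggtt
Lcn2: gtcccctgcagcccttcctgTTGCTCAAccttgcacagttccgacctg
Each holds 1 match but Ngp, which holds 2. In the secondary granule list 18 genes have a promoter there, of which 8 hold the motif (44.4%), against 860 of 9379 tested genes (9.17%). Unlike the interferon-type motif, its share was close in both directions, with 98 of 889 genes called higher and 103 of 954 called lower, against 659 of 7536 not called (8.74%). These shares carry no test.

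Primary granule genes rose by less. Of 14 tested 10 rose and 2 fell, at a median of 0.40. Mpo, myeloperoxidase, had 6127 and 5976 CPM in WT_EV, 6322 and 6401 CPM in dKO_EV and 7997 and 8299.8 CPM in dKO_MUT, at 0.43 ± 0.03 (adjusted p = 2.4e-15). Elane, neutrophil elastase, had 1530.5 and 1469.7 CPM in WT_EV, 1576 and 1634 CPM in dKO_EV and 2032 and 2173 CPM in dKO_MUT, at 0.49 ± 0.03. Prtn3, proteinase 3, had 1137 and 1096 CPM in WT_EV, 1150.5 and 1141 CPM in dKO_EV and 1481 and 1551 CPM in dKO_MUT, at 0.44 ± 0.03. In these 3 genes dKO_EV was within 0.10 ± 0.03 of WT_EV on the log2 scale and both dKO_MUT libraries stood above the others. Against dKO_EV 8 of 14 rose. Ms4a3 and Hp rose by 0.49 ± 0.04 and 0.38 ± 0.04.

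Genes of late neutrophils were higher, and most of the difference was also present with the empty vector. Of 19 tested 14 rose and 0 fell, with a median of 0.58, and the median was 0.34 in dKO_EV over WT_EV and 0.11 in dKO_MUT over dKO_EV. Csf3r, the receptor of the neutrophil growth factor G-CSF, had 115 and 126 CPM in WT_EV, 214 and 199 CPM in dKO_EV and 229 and 229 CPM in dKO_MUT, at 0.92 ± 0.05 (adjusted p = 2.7e-16). Cxcr2, the chemokine receptor that draws neutrophils from marrow, had 31.1 and 31.3 CPM in WT_EV, 78.03 and 72.2 CPM in dKO_EV and 63.0 and 65.3 CPM in dKO_MUT, at 1.04 ± 0.09. Padi4, which converts arginine to citrulline in histones, had 90.7 and 85.6 CPM in WT_EV, 147 and 149 CPM in dKO_EV and 152 and 157 CPM in dKO_MUT, at 0.81 ± 0.06. Mmp25 rose by 1.29 ± 0.14 and Mxd1 by 0.70 ± 0.06. Of 6 subunits of the phagocyte NADPH oxidase 5 rose, led by Ncf1 at 0.32 ± 0.04, and 3 were called when any 1 of the 4 libraries was left out.

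Markers of other marrow lineages were mostly lower where called, against 9.39% called higher and 9.99% lower over all genes tested. Of 13 mast cell and basophil markers 8 fell and 1 rose. Cpa3, a mast cell carboxypeptidase, had 367 and 382 CPM in WT_EV, 185 and 187 CPM in dKO_EV and 219.9 and 219.8 CPM in dKO_MUT, at -0.77 ± 0.05 (adjusted p = 1.7e-15). Prss34, a basophil protease, had 167 and 159 CPM in WT_EV, 55.1 and 56.1 CPM in dKO_EV and 85.2 and 78.01 CPM in dKO_MUT, at -0.997 ± 0.07. Ms4a2, a chain of the IgE receptor, was at -0.90 ± 0.07, Il1rl1, the IL-33 receptor, at -1.02 ± 0.09 and Cyp11a1 at -0.77 ± 0.06. Both dKO groups were low, and dKO_MUT lay above dKO_EV for Cpa3 and Prss34, at 0.24 ± 0.05 and 0.55 ± 0.08. The member that rose was Fcer1a, and the count of increases was 0 without WT_EV replicate 1 or dKO_MUT replicate 2.

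Erythroid markers fell in 10 of 19 and rose in 0, against 9.99% lower and 9.39% higher over all genes tested. Car2, a carbonic anhydrase, had 101.3 and 106 CPM in WT_EV, 86.6 and 84.2 CPM in dKO_EV and 49.5 and 56.2 CPM in dKO_MUT, at -0.97 ± 0.08 (adjusted p = 1.5e-12). Car1 had 13.4 and 12.4 CPM in WT_EV, 1.31 and 3.05 CPM in dKO_EV and 3.04 and 1.63 CPM in dKO_MUT, at -2.45 ± 0.33, and the libraries of both dKO groups overlapped. Zfpm1, the GATA1 cofactor, was at -0.59 ± 0.07 and the spectrin gene Sptb at -1.72 ± 0.24. Of 21 megakaryocyte and platelet markers 8 fell and 3 rose. Thbs1, thrombospondin 1, had 697 and 684 CPM in WT_EV, 570.2 and 566 CPM in dKO_EV and 355 and 366 CPM in dKO_MUT, at -0.94 ± 0.04, and Plek, a platelet kinase substrate, fell by 0.62 ± 0.04. Vwf, von Willebrand factor, rose by 0.96 ± 0.13 with 14.6 and 18.5 CPM in WT_EV, 58.8 and 48.4 CPM in dKO_EV and 31.0 and 33.3 CPM in dKO_MUT. It was highest in dKO_EV, and dKO_MUT over that group was -0.74 ± 0.12 (adjusted p = 1.5e-05).

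Lymphoid markers were called about as often as all genes tested (19.4%). Of 9 T and NK cell markers 2 fell, Il7r and Klrd1, and 0 rose, and 1 was called without WT_EV replicate 1, WT_EV replicate 2 or dKO_MUT replicate 2. Il7r, the receptor of interleukin 7, had 71.2 and 75.9 CPM in WT_EV, 48.8 and 50.6 CPM in dKO_EV and 16.5 and 20.1 CPM in dKO_MUT, at -2.01 ± 0.11 (adjusted p = 1.2e-17). Of 9 B cell markers 2 fell, Blnk at -1.54 ± 0.23 and Dntt at -3.59 ± 0.56. Dntt, the terminal transferase of early lymphoid cells, had 8.21 and 8.51 CPM in WT_EV, 0 and 0.6004 CPM in dKO_EV and 1.06 and 0.280 CPM in dKO_MUT. Epx, an eosinophil peroxidase, fell by 0.49 ± 0.07, with 3 of 10 eosinophil markers called lower and 0 higher (5 lower by limma voom). Of 8 stromal and endothelial markers 2 rose, Tie1 and Col1a1, and 2 fell, Pdgfrb and Vcam1, or 1 without dKO_MUT replicate 2.

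The stem cell programme moved in both directions, where 9.39% of all genes tested were called higher and 9.99% lower. Of 39 members 8 rose and 11 fell, at a median of 0.02, and the 8 became 5 without WT_EV replicate 1. Ly6a, the Sca-1 antigen, had 271 and 261 CPM in WT_EV, 246 and 263 CPM in dKO_EV and 159 and 170 CPM in dKO_MUT, at -0.69 ± 0.05 (adjusted p = 1.4e-13). Gata2, a factor of stem and mast cells, had 255 and 251 CPM in WT_EV, 205 and 186 CPM in dKO_EV and 189 and 169.7 CPM in dKO_MUT, at -0.50 ± 0.06. Flt3, the receptor of multipotent progenitors, had 36.3 and 32.7 CPM in WT_EV, 15.9 and 17.9 CPM in dKO_EV and 16.7 and 20.1 CPM in dKO_MUT, at -0.91 ± 0.13. For Ly6a dKO_EV overlapped WT_EV and dKO_MUT lay under both, at -0.63 ± 0.05 against dKO_EV (adjusted p = 4.3e-12), while Flt3 and Gata2 were not called against dKO_EV. Tgm2, a transglutaminase, fell by 1.54 ± 0.16. Lyl1, a basic helix-loop-helix factor, rose by 0.48 ± 0.06, and Cish, a STAT5 feedback inhibitor, by 0.58 ± 0.09, with 30.1 and 29.5 CPM in WT_EV, 70.6 and 68.9 CPM in dKO_EV and 42.7 and 46.7 CPM in dKO_MUT. Cish was highest in dKO_EV. Fgd5, a stem cell exchange factor, had 0 counts in both WT_EV libraries and 17 and 19 in dKO_MUT. It was at least 5.91-fold higher with WT_EV at a floor of 3 counts in each library and the dKO_MUT counts taken as read.

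Hox genes, with the targeted Hoxa9 counted, were called at a share near that of all genes tested (19.4%). Of 19 Hox genes and Meis and Pbx cofactors 2 fell, Hoxa9 and Hoxa7, and 1, Hoxb5, rose. Hoxa7, next to Hoxa9 in the cluster, had 7.195 and 5.06 CPM in WT_EV, 1.70 and 2.59 CPM in dKO_EV and 2.89 and 1.79 CPM in dKO_MUT, at -1.38 ± 0.37 (adjusted p = 0.0057), a call lost without WT_EV replicate 1 or dKO_MUT replicate 2. Hoxb5 had 0 counts in WT_EV and 9 and 5 in dKO_MUT. It was at least 2.24-fold higher against the same floor, with the dKO_MUT counts taken as read. Its call was lost without any 1 of these 4 libraries or without dKO_PRMT1 replicate 1. Meis1, a cofactor of Hoxa9, had 26.0 and 26.2 CPM in WT_EV, 37.0 and 33.2 CPM in dKO_EV and 26.0 and 26.2 CPM in dKO_MUT. The wild-type and dKO_MUT libraries overlapped, at -0.00 ± 0.12 (adjusted p = 1), and dKO_MUT was -0.42 ± 0.12 against dKO_EV (adjusted p = 0.013), a call lost without dKO_EV replicate 1, dKO_MUT replicate 1 or dKO_MUT replicate 2.

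Of 34 Wnt components and targets, against 19.4% called over all genes, 2 fell, the targeted Ctnnb1 and Ccnd1, and 2 rose, Lrp5 and Pygo2. The change of Ctnnb1 is part of the design. Ccnd1, the cyclin D1 gene and a Wnt target, had 103 and 105 CPM in WT_EV, 93.6 and 97.4 CPM in dKO_EV and 61.3 and 68.1 CPM in dKO_MUT, at -0.68 ± 0.07 (adjusted p = 1.6e-09). Lrp5, a Wnt co-receptor, was at 0.23 ± 0.07, and Pygo2, a partner of beta-catenin, at 0.28 ± 0.08. The count of increases was 0 without WT_EV replicate 2, 1 without dKO_MUT replicate 1 or dKO_MUT replicate 2, and 4 without WT_EV replicate 1 or dKO_EV replicate 1. Of 19 arginine methyltransferases and partners, the inserted Prmt1 and Btg2, a PRMT1 partner, rose, the latter by 0.54 ± 0.10. Prmt2 and Prmt5, the main enzyme of symmetric dimethylation, fell, and Prmt5 was at -0.20 ± 0.06 with 124 and 121 CPM in WT_EV, 97.4 and 95.7 CPM in dKO_EV and 112 and 102 CPM in dKO_MUT. The 2 decreases were 0 without WT_EV replicate 1 or WT_EV replicate 2, and 1 without dKO_MUT replicate 1 or dKO_MUT replicate 2. Carm1, a further asymmetric dimethylase, was at -0.07 ± 0.08 (adjusted p = 0.64).

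Myeloid fate factors moved in both directions, where 9.39% of all genes tested were called higher and 9.99% lower. Of 26 tested 7 rose and 8 fell. Cebpd, a C/EBP family member, had 52.1 and 50.7 CPM in WT_EV, 83.7 and 67.6 CPM in dKO_EV and 86.3 and 96.3 CPM in dKO_MUT, at 0.83 ± 0.09, and Klf4, a factor of monocytes, had 53.7 and 57.3 CPM in WT_EV, 78.6 and 74.7 CPM in dKO_EV and 87.1 and 79.1 CPM in dKO_MUT, at 0.58 ± 0.08. Maf, a factor of macrophages, had 96.0 and 87.9 CPM in WT_EV, 58.9 and 51.6 CPM in dKO_EV and 21.4 and 22.5 CPM in dKO_MUT and was lower in dKO_EV than in WT_EV too, at -0.74 ± 0.09 (adjusted p = 8.6e-08). Among 24 cytokine receptors 7 rose and 6 fell. Il17ra rose by 0.49 ± 0.05, beside Csf3r, and Csf2rb2, an interleukin 3 receptor chain, fell by 0.46 ± 0.04, beside Csf1r.

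AP-1 and immediate early genes, which respond to growth factor and stress signals, differed by member. Of 24 tested 6 rose and 9 fell, against 9.39% higher and 9.99% lower over all genes tested. Atf3, a stress-induced member, had 75.5 and 76.1 CPM in WT_EV, 75.1 and 68.8 CPM in dKO_EV and 36.2 and 35.4 CPM in dKO_MUT, at -1.08 ± 0.09 (adjusted p = 2.0e-12). Jun had 85.0 and 78.9 CPM in WT_EV, 97.8 and 89.9 CPM in dKO_EV and 60.7 and 54.4 CPM in dKO_MUT, at -0.51 ± 0.08. Fosl2 had 55.0 and 54.9 CPM in WT_EV, 50.9 and 57.9 CPM in dKO_EV and 90.5 and 75.0 CPM in dKO_MUT, at 0.59 ± 0.09. For Atf3 and Fosl2 dKO_EV was not called against WT_EV, at -0.08 ± 0.08 and -0.01 ± 0.09 (adjusted p = 0.63 and 0.97). Egr2, a macrophage and lymphocyte factor, fell by 1.51 ± 0.21. Over all genes tested, 4.43% were called higher and 7.06% lower against dKO_EV. In dKO_EV over WT_EV the shares were 8.29% higher and 7.27% lower. Against dKO_EV 10 of 24 fell and 1 rose, and in dKO_EV over WT_EV 11 rose and 0 fell, 7 without WT_EV replicate 2.

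Glycolytic enzymes and targets of the hypoxia factor HIF1 were lower. Of 32 tested 24 fell and 4 rose, with a median of -0.42, unchanged with P4ha2, which had 0 counts in dKO_MUT, set at its bound. Ldha, which turns pyruvate to lactate, had 1682 and 1744 CPM in WT_EV, 987 and 991 CPM in dKO_EV and 877 and 911 CPM in dKO_MUT, at -0.94 ± 0.03 (adjusted p = 1.2e-22). Tpi1, triose phosphate isomerase, had 879 and 904 CPM in WT_EV, 501 and 500 CPM in dKO_EV and 450 and 475 CPM in dKO_MUT, at -0.95 ± 0.04. Bnip3, a mitophagy receptor, had 109 and 113 CPM in WT_EV, 33.6 and 34.1 CPM in dKO_EV and 25.0 and 29.9 CPM in dKO_MUT, 4.04-fold lower at -2.02 ± 0.09. In each the greater part of the step lay between WT_EV and dKO_EV. Slc16a3, the lactate exporter, was at -1.40 ± 0.06 and the aldolase Aldoa at -0.66 ± 0.03. The list's median was -0.42 in dKO_EV over WT_EV, with 21 of 32 lower, and 0.00 in dKO_MUT over dKO_EV, with 9 lower, or 5 without dKO_EV replicate 1 and 3 without dKO_MUT replicate 1, and 4 higher, or 2 without dKO_MUT replicate 2.

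Promoters from this list, again the 4 with the smallest p among called members holding the letters, are shown with ACGTG, the core of the hypoxia response element, in capitals on either strand, where CACGTG is read as a match on both. The windows are chr7:46845639-46845794, plus strand for Ldha, chr11:120949020-120949066, plus strand for Slc16a3, chr7:138909589-138909634, minus strand for Bnip3 and chr7:126799356-126799400, minus strand for Aldoa.
Ldha: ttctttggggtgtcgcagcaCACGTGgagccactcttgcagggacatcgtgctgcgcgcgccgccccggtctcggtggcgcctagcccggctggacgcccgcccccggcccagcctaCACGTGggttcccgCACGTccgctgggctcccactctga
Slc16a3: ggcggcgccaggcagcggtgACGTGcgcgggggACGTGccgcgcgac
Bnip3: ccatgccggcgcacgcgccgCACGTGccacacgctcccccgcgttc
Aldoa: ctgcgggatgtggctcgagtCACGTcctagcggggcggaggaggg
In the glycolysis list 28 members have a promoter there, of which 18 hold the core (64.3%), against 2337 of 9379 tested genes (24.9%). The core is short and common, and it was in 22.6% of the genes called lower, 23.3% of those called higher and 25.4% of those not called.

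Ribosomal protein genes differed little from WT_EV and were higher than in dKO_EV. Against WT_EV 6 of 72 fell and 0 rose (by limma voom 11 fell), at a median of -0.03, where 9.99% of all genes tested fell. The 6 became 2 without WT_EV replicate 2 or dKO_MUT replicate 1 and 10 without dKO_EV replicate 1 or dKO_EV replicate 2. Rpl38 had 515 and 494 CPM in WT_EV, 345 and 364 CPM in dKO_EV and 404 and 415 CPM in dKO_MUT, at -0.30 ± 0.04 (adjusted p = 1.9e-06), and Rps29 had 682 and 691 CPM in WT_EV, 497 and 505 CPM in dKO_EV and 591 and 644 CPM in dKO_MUT, at -0.15 ± 0.04, a call lost without WT_EV replicate 2 or dKO_MUT replicate 1. Both were lowest in dKO_EV. In dKO_EV over WT_EV 62 of 72 fell, at a median of -0.16, or 39 without dKO_EV replicate 1. In dKO_MUT over dKO_EV 47 rose, at a median of 0.13, or 26 without dKO_EV replicate 1 and 22 without dKO_MUT replicate 2. Rpl26 was listed at 0, and many genes of this family have processed copies, which makes their counts uncertain.

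Nucleolar and mitochondrial genes moved by small amounts, where 9.39% of all genes tested were called higher and 9.99% lower. Of 49 ribosome biogenesis and Myc genes 11 fell and 1 rose, or 7 fell without WT_EV replicate 1 or dKO_MUT replicate 2 and 0 rose without WT_EV replicate 2, dKO_MUT replicate 1 or dKO_MUT replicate 2. Ncl, nucleolin, had 1939.7 and 2016 CPM in WT_EV, 1583 and 1658 CPM in dKO_EV and 1695 and 1671 CPM in dKO_MUT, at -0.23 ± 0.03, and Npm1, nucleophosmin, was at -0.18 ± 0.03. Of 66 subunits of oxidative phosphorylation 3 fell and 0 rose, or 0 fell without WT_EV replicate 2 or dKO_MUT replicate 1. Of 27 heat shock and chaperonin genes 10 fell and 0 rose, or 4 without WT_EV replicate 2 and 6 without dKO_MUT replicate 1, led by Hsp90aa1 at -0.26 ± 0.03.

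Smaller lists gave these counts, where 9.39% of all genes tested were called higher and 9.99% lower. Of 18 STAT and SOCS genes 4 rose and 2 fell. The increases were 2 without WT_EV replicate 2 or dKO_MUT replicate 1 and 1 without dKO_MUT replicate 2, and the decreases 1 without dKO_MUT replicate 1. Of 27 genes of the ATF4 amino acid response 2 rose and 4 fell. The increases were 1 without WT_EV replicate 1 or WT_EV replicate 2 and 0 without dKO_MUT replicate 2, and the decreases 7 without dKO_EV replicate 1 or dKO_EV replicate 2. Of 18 endoplasmic reticulum chaperones 5 fell and 0 rose, or 3 without WT_EV replicate 1 or dKO_MUT replicate 1 and 2 without WT_EV replicate 2 or dKO_MUT replicate 2. Of 30 hnRNP, SR and FET proteins, many of them substrates of PRMT1, 1 rose and 2 fell, at a median of -0.03. The increase was lost without WT_EV replicate 1, WT_EV replicate 2 or dKO_MUT replicate 1. The decreases were 1 without WT_EV replicate 1 and 0 without any other library of WT_EV, dKO_MUT or dKO_PRMT1. Of 23 genes of cholesterol synthesis 5 fell and 1 rose. The decreases were 3 without WT_EV replicate 1, 2 without WT_EV replicate 2 and 1 without dKO_MUT replicate 1, and the increase was 0 without dKO_MUT replicate 2 and 2 without dKO_EV replicate 1 or dKO_EV replicate 2.

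DNA replication genes, a process named in the series title, showed few calls. Of 56 tested 1 rose and 2 fell, at a median of -0.02 and with single genes between -0.33 and 0.33, where 19.4% of all genes tested were called. Pcna, the sliding clamp, had 386 and 402 CPM in WT_EV, 358 and 344 CPM in dKO_EV and 349.9 and 367 CPM in dKO_MUT, at -0.14 ± 0.04 (adjusted p = 0.017). Mcm3, a subunit of the replicative helicase, had 479 and 466 CPM in WT_EV, 406 and 399 CPM in dKO_EV and 436 and 437 CPM in dKO_MUT, at -0.12 ± 0.04 (adjusted p = 0.032). Pcna was not called without WT_EV replicate 2 or dKO_MUT replicate 1, nor Mcm3 without any 1 of the 4 libraries. Dna2, a flap nuclease, had 76.7 and 78.7 CPM in WT_EV, 95.1 and 87.0 CPM in dKO_EV and 93.9 and 93.5 CPM in dKO_MUT, at 0.27 ± 0.07. The decreases were 0 without WT_EV replicate 2, 1 without WT_EV replicate 1, dKO_MUT replicate 2 or dKO_PRMT1 replicate 2, and 4 without dKO_EV replicate 1 or dKO_EV replicate 2. Without dKO_MUT replicate 2 there were 2 increases.

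Enzymes that supply nucleotides were lower in 8 of 26 and higher in 0, or lower in 5 without WT_EV replicate 1 and in 4 without WT_EV replicate 2 or dKO_MUT replicate 1. Samhd1, which breaks down deoxynucleotides, had 443 and 440.1 CPM in WT_EV, 434 and 467 CPM in dKO_EV and 370.4 and 359 CPM in dKO_MUT, at -0.27 ± 0.04, and Dck, a salvage kinase, fell by 0.36 ± 0.06. Of 43 genes of homologous recombination, the checkpoint and the Fanconi pathway, Blm, a RecQ helicase, fell by 0.40 ± 0.08, and H2afx and Fanca rose by 0.21 ± 0.05 and 0.39 ± 0.11. The 2 increases were 1 without WT_EV replicate 1 or dKO_MUT replicate 1. Of 52 mitotic genes 5 rose and 0 fell, against 9.39% higher and 9.99% lower over all genes tested. Without WT_EV replicate 1, WT_EV replicate 2 or dKO_MUT replicate 1 only 2 rose, and without dKO_MUT replicate 1 there was 1 decrease. Mki67, the proliferation antigen, had 586 and 529 CPM in WT_EV, 498 and 516 CPM in dKO_EV and 638 and 622 CPM in dKO_MUT, at 0.18 ± 0.05 (adjusted p = 0.0056), a call lost without WT_EV replicate 2 or dKO_MUT replicate 1.

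Regulators of the G1 phase and targets of p53 were mixed, where 9.39% of all genes tested were called higher and 9.99% lower. Of 23 G1 genes 7 rose and 4 fell. The 7 became 4 without WT_EV replicate 2 or dKO_MUT replicate 1, and the 4 became 2 without WT_EV replicate 1. Ccnd1 and Ccnd2 fell, the latter at -0.41 ± 0.05, while Ccnd3, a cyclin of maturing blood cells, rose by 0.30 ± 0.04 and E2f2 by 0.47 ± 0.06. Of 26 genes of the Trp53 list 7 rose and 4 fell. Trp53inp1 rose by 0.77 ± 0.09 with 36.4 and 39.1 CPM in WT_EV, 60.2 and 54.7 CPM in dKO_EV and 66.4 and 62.5 CPM in dKO_MUT. Plk2, a stress-induced kinase, was at -1.72 ± 0.19 and Pmaip1, a pro-apoptotic BH3 protein, at -0.93 ± 0.11. The classic target Cdkn1a was at -0.18 ± 0.06 (adjusted p = 0.029), named after its value was seen. Of 16 Bcl2 family genes 6 fell and 2 rose, the latter 1 without WT_EV replicate 2, dKO_MUT replicate 1 or dKO_MUT replicate 2, and Bcl2a1b, a survival gene with near-identical copies, fell by 2.000 ± 0.21.

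Of 21 haem and iron genes 10 fell and 1 rose, against 9.99% lower and 9.39% higher over all genes tested. Fth1, ferritin heavy chain, had 2347 and 2414 CPM in WT_EV, 2249.7 and 2375 CPM in dKO_EV and 1651 and 1687 CPM in dKO_MUT, at -0.51 ± 0.03 (adjusted p = 1.9e-15), and Hmox1, which degrades haem, fell by 0.78 ± 0.08. Slc40a1, the iron exporter ferroportin, was the member that rose, with 41.9 and 40.2 CPM in WT_EV, 79.3 and 73.2 CPM in dKO_EV and 79.4 and 76.3 CPM in dKO_MUT, at 0.92 ± 0.08. Of 12 arginine genes 4 fell, Arg1, Nos2, Odc1 and Slc7a1, or 2 without WT_EV replicate 1, dKO_MUT replicate 1 or dKO_MUT replicate 2. The 2 that rose were Arg2, the mitochondrial arginase, with 5.02 and 3.95 CPM in WT_EV, 12.98 and 9.10 CPM in dKO_EV and 11.4 and 12.7 CPM in dKO_MUT, at 1.42 ± 0.25, and Slc7a2, a cationic amino acid carrier, with 4.05 and 6.01 CPM in WT_EV, 32.9 and 28.6 CPM in dKO_EV and 11.6 and 9.93 CPM in dKO_MUT, at 1.10 ± 0.20. Arg2 thus rose while Arg1 fell, and Slc7a2 was highest in dKO_EV.

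Of 23 matrix proteins, metalloproteinases and inhibitors 10 fell and 5 rose, against 9.99% lower and 9.39% higher over all genes tested. Mmp12, the macrophage elastase, had 222 and 228 CPM in WT_EV, 186 and 199.8 CPM in dKO_EV and 58.0 and 59.9 CPM in dKO_MUT, at -1.93 ± 0.06 (adjusted p = 1.3e-24). Adam8 fell by 1.26 ± 0.06, with 255 and 264 CPM in WT_EV, 198 and 204 CPM in dKO_EV and 100.9 and 115 CPM in dKO_MUT. Fn1, fibronectin, went the other way, with 87.7 and 75.2 CPM in WT_EV, 127 and 130.2 CPM in dKO_EV and 207 and 201 CPM in dKO_MUT, at 1.32 ± 0.06. The other members that rose were Vcan and the neutrophil proteases Mmp8, Mmp9 and Mmp25. Of 23 integrins and selectin ligands 7 rose, or 4 without WT_EV replicate 2, and 7 fell. Itgam and Itgb2, the chains of the integrin Mac-1, rose by 0.34 ± 0.04 and 0.30 ± 0.04, and Itga5, the fibronectin receptor chain, fell by 0.69 ± 0.07.

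**Figure D4:**
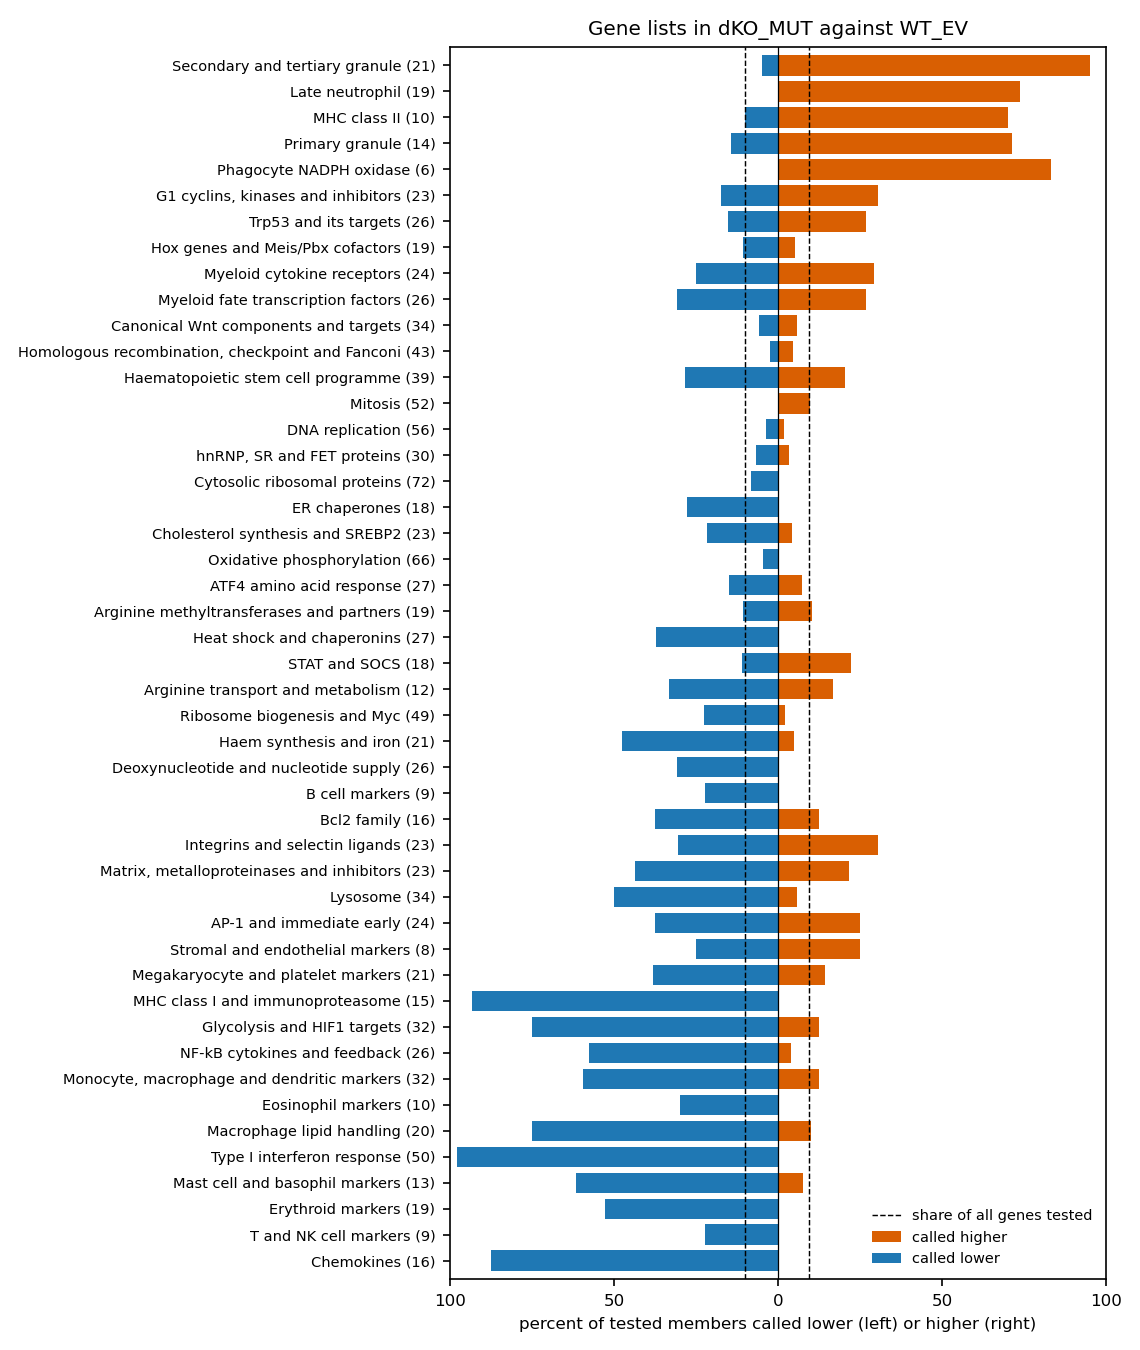
Percent of tested members of each gene list called lower (left) or higher (right) in dKO_MUT against WT_EV, with the number tested in brackets and dashed lines at the shares of all genes tested, 9.99% lower and 9.39% higher; lists are ordered by median. Secondary granule genes stand at the top and chemokines at the bottom.

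Set side by side, the 3 comparisons placed the lists in different positions, as the plot of members in each comparison shows. They share libraries and are not independent of each other. Glycolysis had medians of -0.42 in dKO_EV over WT_EV and 0.00 in dKO_MUT over dKO_EV, and in the same order mast cell markers had -0.88 and -0.01. Interferon genes had -0.12 and -0.67, lipid handling genes -0.12 and -0.63, and secondary granule genes 0.75 and 0.32. Over all genes tested the same medians were -0.00 and 0.01.

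**Figure D5:**
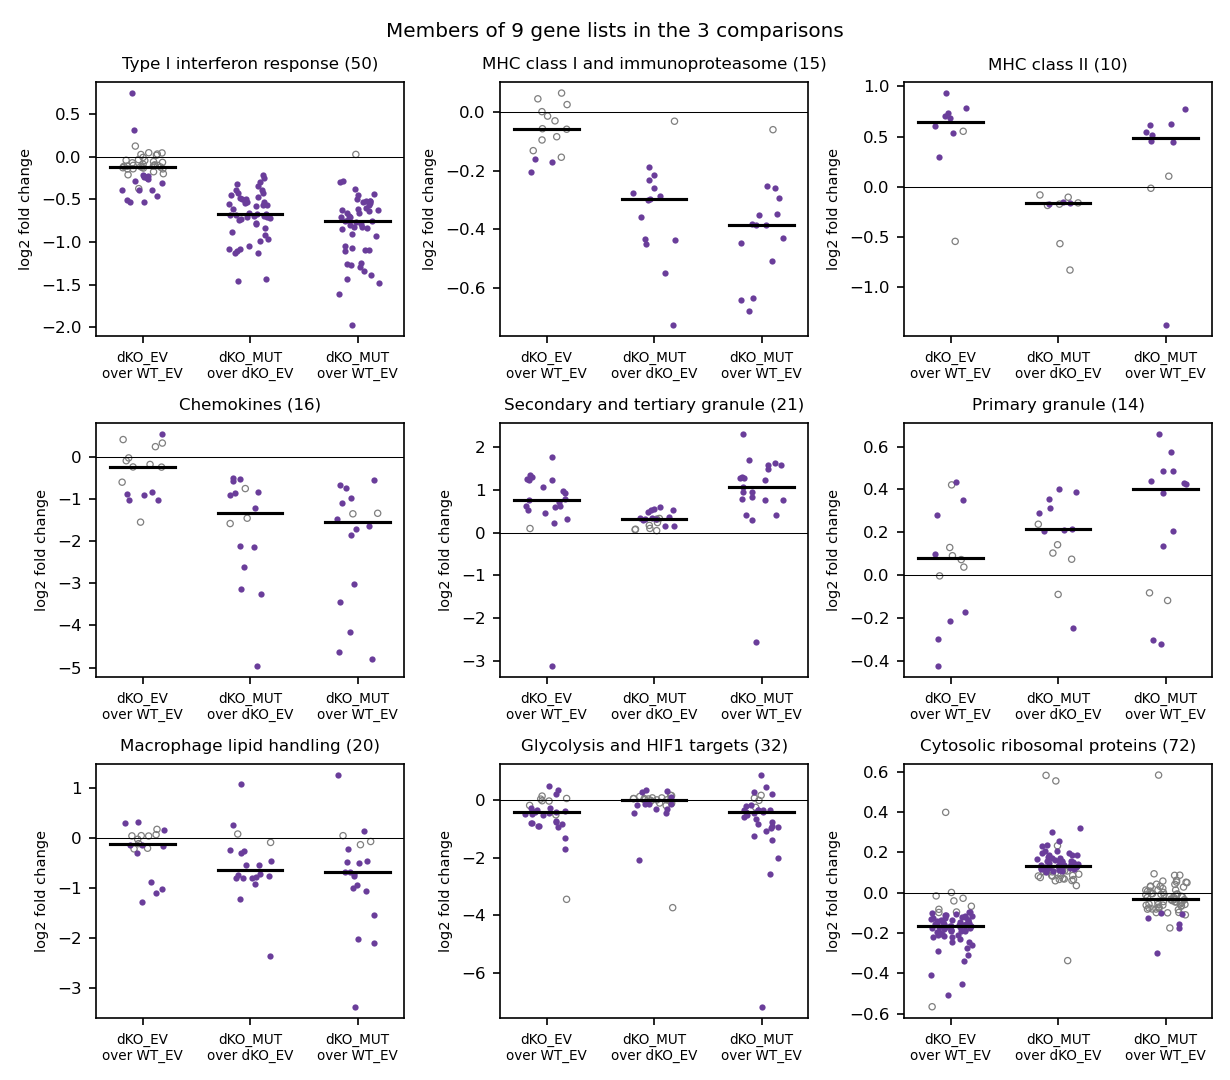
Log2 fold change of each tested member of 9 gene lists in dKO_EV over WT_EV, dKO_MUT over dKO_EV and dKO_MUT over WT_EV; filled points are called genes, open points are not, and bars are medians. Interferon genes have a median of -0.12 in the first comparison and lie lower in the other pair. Glycolysis genes have a median near 0 in the second. The medians of ribosomal protein genes lie on opposite sides of 0 in the first and the second, at -0.16 and 0.13.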

How the data were processed

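RNA was sequenced from 8 HSPC libraries in 4 groups of 2. Per the labels' protocols, a directional library kit was used. The submitters' processing notes list STAR 2.7.6a, Trim Galore 0.6.6 and featureCounts, with the build GRCm38 (mm10). No source used here gives a strand setting or an annotation, so overlapping and antisense genes cannot be separated. The authors deposited raw counts per gene, and groups were taken from sample titles.

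Only autosomal rows entered. Counts were analysed with edgeR 4.0.16 in R 4.3.3: filterByExpr, TMM scaling, and the robust quasi-likelihood test, fitted to the 8 libraries by group alone (4 residual degrees of freedom), Benjamini-Hochberg adjustment and a threshold of 0.05. Standard errors are the log2 fold change divided by the root of F. The steps were tested on simulated counts. Alternatives were DESeq2 1.42.0, limma 3.58.1 voom, other filters and scalings, a replicate block and each library left out. Replicate numbers did not pair the samples, with a correlation of -0.0065 between WT_EV and dKO_MUT deviations.

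Named genes were Prmt1, Prmt2, Ctnnb1 and Hoxa9, the 12 largest increases and decreases and the 12 largest changes against dKO_EV (called, mean of 5 CPM or more, no overlap, established symbols), up to 5 called members of each of 47 lists by p, and tested Hox, methyltransferase and Wnt members. Some are left out for room, and a few items are not reported here. The comparison and the lists were chosen with earlier results of these data known, so a list's count is not independent evidence of its direction. Promoters are from the RefSeq table (GRCm38.p6), which held 9379 tested genes. The 12 printed were the 4 called list members holding each motif with the smallest p. A gene with more than 1 promoter there held a motif if any of them did, and the first such promoter was printed. The Aldoa window lies inside the counted gene, chr7:126795234-126800447. For 10 of the 12, bases just after the start site were found in an annotated transcript of the gene. They were not found for Bst2 and Ldha.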

Additional observations from a re-analysis of the deposited data

Results flagged for a closer look

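Y-linked transcripts, left out of the fit, were present in dKO_MUT and had 0 counts in both WT_EV libraries. Ddx3y, an RNA helicase gene, had 1469 and 1158 counts in dKO_MUT, Eif2s3y, a translation factor gene, 1128 and 1091, Kdm5d, a histone demethylase gene, 539 and 445, and Uty, its relative of the KDM6 family, 488 and 387. Xist had the reverse pattern, with 0 counts in dKO_MUT. Their part in the autosomal results was not tested, since sex and genotype cannot be told apart in these 4 libraries.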

How the results depend on the processing

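The count of 2386 genes called in dKO_MUT against WT_EV ranged from 1591 to 2717 when a library was left out and from 1687 to 2638 under the other alternatives. Against dKO_EV the 1415 calls ranged from 950 to 1388 with a library left out and became 890 at a threshold of 0.01. In dKO_EV against WT_EV the 1916 calls ranged from 1110 to 1916 with a library left out and became 1175 at a threshold of 0.01. With a replicate block the counts were 2372, 1390 and 1874. The replicate numbers share only a number here, and the block result is given for that reason alone. Reversals of direction were looked for only in named genes, in dKO_MUT against WT_EV and against dKO_EV. None was found where the main fit or the alternative called the gene. Of 556 results on named genes, 447 kept their side of the threshold under each alternative run. A threshold of 0.01 ended 52 calls and leaving out dKO_MUT replicate 1 ended 60. The strand setting, unknown here, limits values of overlapping genes. When a replicate is left out the lone library of its group is assumed to vary like the other groups.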

Other observations

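Of the 2386 genes called between dKO_MUT and WT_EV, 1917 were in none of the lists described. Of the 12 with the smallest p among them, 11 are given here (mean of 5 CPM or more, not named above, chosen after their values were seen). C3ar1, the receptor of the complement fragment C3a, had 301 and 303 CPM in WT_EV, 189 and 214 CPM in dKO_EV and 77.4 and 82.2 CPM in dKO_MUT, at -1.92 ± 0.06 (adjusted p = 1.0e-24). C3, the complement component itself, had 637 and 602 CPM in WT_EV, 942 and 983 CPM in dKO_EV and 1017 and 1007 CPM in dKO_MUT and rose by 0.71 ± 0.04. The receptor thus fell while its precursor ligand rose. C3ar1 in dKO_EV stood between the other groups, with dKO_MUT over dKO_EV at -1.34 ± 0.06. For C3 most of the rise was present in dKO_EV, and dKO_MUT was not called against it, at 0.07 ± 0.04 (adjusted p = 0.2). Plau, urokinase, had 94.0 and 99.3 CPM in WT_EV, 51.3 and 45.0 CPM in dKO_EV and 21.98 and 21.8 CPM in dKO_MUT, at -2.14 ± 0.09. Anpep, aminopeptidase N, had 164 and 146 CPM in WT_EV, 150.1 and 168 CPM in dKO_EV and 65.4 and 59.4 CPM in dKO_MUT. It fell by 1.31 ± 0.07 against WT_EV, with no call in dKO_EV over WT_EV, at 0.04 ± 0.07 (adjusted p = 0.78). Emp1, Sdc3, Dab2, Rgl1, Ifi204, Scin and Marcks also fell, from -1.12 ± 0.06 for Scin to -1.95 ± 0.06 for Emp1.

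Some genes were at 0 in both libraries of WT_EV or of dKO_MUT. Hunk, a serine/threonine kinase gene, had 0 counts in WT_EV, 27 and 35 in dKO_EV and 45 and 45 in dKO_MUT, at least 14.7-fold higher against a floor of 3 counts in each library. Alk, a receptor tyrosine kinase gene, had 0 counts in WT_EV, 80 and 69 in dKO_EV and 62 and 28 in dKO_MUT, at least 14.3-fold higher. Mgarp, a mitochondrial protein gene, had 54 and 35 counts in WT_EV, 5 and 7 in dKO_EV and 0 in dKO_MUT, at least 15.0-fold lower. Each floor covers counting error in the group at 0 only, and the counts of the other group are taken as read.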
